A study of Mus musculus with 106 samples.

Results

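The genes of 10 hypothalamic neuropeptides were followed across the neural tissues of mice kept at 10 °C, 22 °C or 34 °C: Agrp, Npy, Pomc, Cartpt, Trh, Crh, Avp, Oxt, Hcrt and Pmch. They were taken by symbol, and all 10 were found among the 21647 genes of the table with hypothalamus and brain, the 23393 genes of the warm tissue table and the 23420 genes of the spinal cord table. Bulk RNA sequencing had been done on hypothalamus (3 libraries at 10 °C and 3 at 22 °C), brain (3 and 3), spinal cord (5 and 5) and whole brain without hypothalamus (3 libraries at 34 °C and 3 at 22 °C). All mice were male and wild type, C57BL/6 by the labels of the 10 °C experiment and C57BL/6J by those of the 34 °C experiment, and were 8 weeks old when housing began. Mice of the first experiment spent 2 weeks at 10 °C after gradual cooling, or stayed at 22 °C, and were labelled 11 weeks old at sampling. Mice of the second spent 4 weeks at 34 °C or stayed at 22 °C and were labelled 12 weeks old. A library pooled 2 mice, except in spinal cord, where it came from 1 mouse. Libraries held 12663232 to 22049093 gene counts in hypothalamus and brain, 21953207 to 29029283 in spinal cord and 48996910 to 62880248 in brain without hypothalamus.

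Neurons of the hypothalamus cut these peptides from larger precursors and release them locally, across the brain or into the blood of the pituitary. Neurons of the arcuate nucleus make either Agrp together with Npy, which drive feeding and lower energy expenditure, or Pomc, often with Cartpt, whose products do the opposite. Trh and Crh start the thyroid and the adrenal axis, Avp and Oxt reach the circulation from the posterior pituitary, and Hcrt (orexin) and Pmch (melanin-concentrating hormone) belong to separate neurons of the lateral hypothalamus that govern arousal, feeding and body temperature.

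The labelled tissue was checked first with 5 transcription factor genes that mark hypothalamus (Sim1, Otp, Nkx2-1, Fezf1, Nr5a1). Their summed level was 78.5 to 90.6 CPM (counts scaled to a fixed library total) in the hypothalamus libraries, 1.496 to 2.196 in the brain libraries used, 1.62 to 2.92 in spinal cord and 0.786 to 1.47 in brain without hypothalamus. The brain labels of the 10 °C experiment do not say whether the hypothalamus had been taken out. Its 22 °C brain replicate 2 stood apart, with 68310 CPM of 5 liver genes (Alb, Apob, Serpina3k, Fga, Ahsg, chosen after their values were seen) against 3.21 to 15.3 in the other brain libraries, and was left out unless stated.

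In the hypothalamus at 22 °C, levels per kilobase of exon (CPM per kb, which lets genes of different length be compared) fell into clear steps. Avp stood highest at 263.9 ± 22.8 (SD, n = 3), followed by Oxt at 250.2 ± 27.3 and Hcrt at 230.9 ± 7.24, and the library ranges of Avp and Oxt and of Oxt and Hcrt overlapped. Pmch came next at 173.3 ± 13.04, then Trh at 74.8 ± 8.06 and Cartpt at 53.7 ± 2.17, none of which overlapped its neighbours. Npy at 32.1 ± 2.43 and Pomc at 30.7 ± 3.08 could not be ordered. Agrp at 3.94 ± 0.418 and Crh at 2.42 ± 0.451 were the lowest, and their libraries did not overlap. In CPM, without exon length, the 2 genes did overlap (3.54 to 4.38 and 2.72 to 3.87), so this step rests on the exon lengths used. In bulk tissue, fewer cells of a type and less RNA per cell cannot be told apart.

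Against brain at 22 °C, 8 of the 10 genes were higher in the hypothalamus and 2 were lower, all with p of at most 0.05 and a fold above 1.5, limits that 40.4% of the 14421 genes tested passed (22.3% higher, 18.1% lower). The lateral hypothalamic genes differed most: Hcrt was higher by 7.04 on the log2 scale (standard error, SE, 0.312) and Pmch by 6.49 (SE 0.127). Avp followed at 5.68 (SE 0.286) and Oxt at 5.63 (SE 0.257), then Trh at 3.15 (SE 0.116), Agrp at 2.599 (SE 0.268), Pomc at 2.19 (SE 0.369) and Cartpt at 1.89 (SE 0.0945). Npy, which many interneurons of cortex and striatum also make, had a log2 difference of -1.70 (SE 0.0960), and Crh one of -1.17 (SE 0.198). All 10 had a Benjamini-Hochberg adjusted p under 0.05 by edgeR's quasi-likelihood test, as had 71.6% of all genes. Agrp had 10 counts in each 22 °C brain library used, was under the expression limit within brain, and entered through the hypothalamus libraries. Only 2 brain libraries entered at 22 °C, and 1 of them, replicate 3, carried most of the brain Pomc: without it the log2 difference of Pomc was 4.78, and without the other 1.43.

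**Figure D1:**
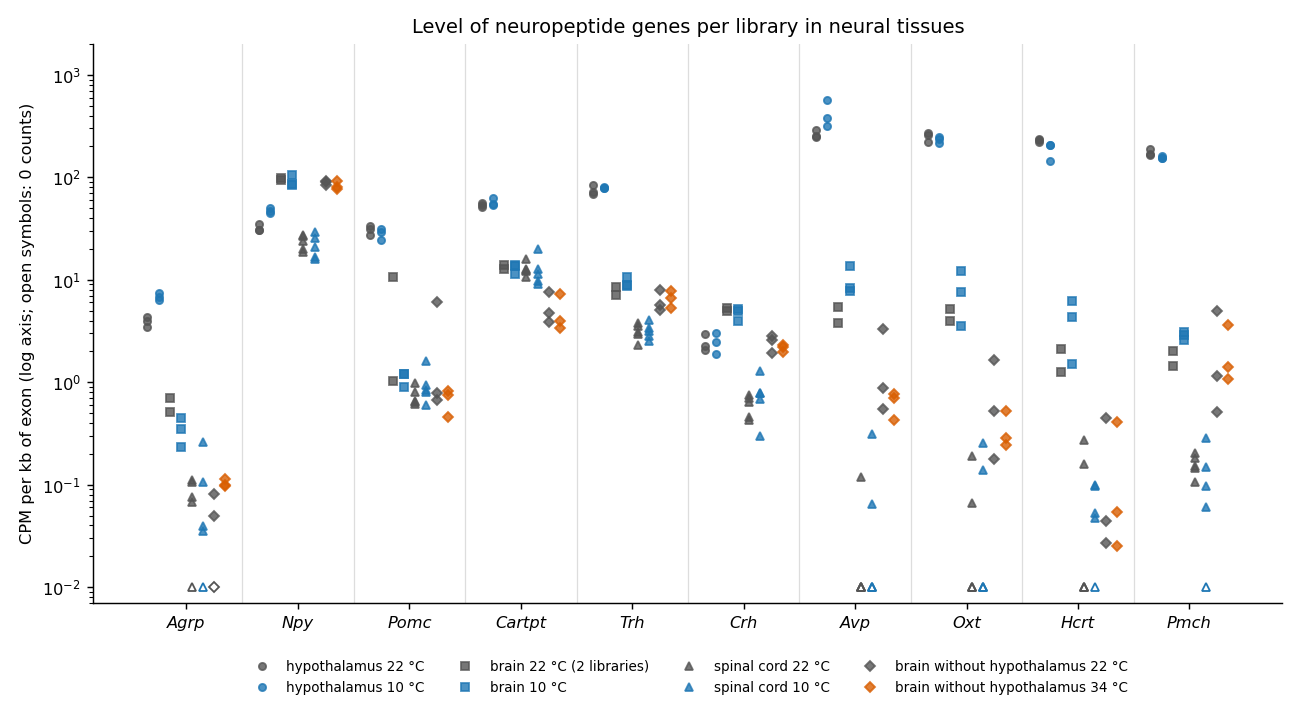
Level of each neuropeptide gene (columns) in CPM per kb of exon on a log axis, 1 symbol per library, with open symbols for 0 counts; circles stand for hypothalamus, squares for brain, triangles for spinal cord and diamonds for brain without hypothalamus. Avp, Oxt, Hcrt and Pmch lie above 100 in the hypothalamus and below 20 elsewhere, whereas Npy lies highest in brain, at 96.0 ± 3.35 (SD, n = 2) at 22 °C.

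The main question was whether these genes differ in the hypothalamus after 2 weeks at 10 °C. Agrp and Avp were higher at 10 °C, Npy was higher by just under 1.5-fold, and the other 7 stayed within 1.5-fold of their 22 °C level. A gene was called when its unadjusted p was at most 0.05 and its fold above 1.5, as the study did. Of all 14526 genes tested, 0.578% were called (0.399% higher and 0.179% lower), and 2 of the 10 neuropeptide genes were, both higher. With p alone, 5 of the 10 passed, 3 higher and 2 lower, against 6.18% of all genes (3.5% higher and 2.67% lower). None of the 14526 genes had an adjusted p under 0.05 by edgeR's quasi-likelihood test, where 897 had an unadjusted p of at most 0.05, while DESeq2 gave 21 genes and edgeR's exact test 25. Of the 10 neuropeptide genes, DESeq2 gave 1 such gene (Npy) and the exact test 3 (Agrp, Npy, Avp). The libraries of the 2 temperatures did not overlap for 5 of the 10 genes (3 higher, 2 lower), as for 11.9% of all genes (6.01% higher, 5.88% lower).

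Agrp, the peptide that blocks melanocortin receptors and drives feeding, lies at chr8:105566698-105637393 on the minus strand (mm10). The span is long because 5 of its 8 annotated exon blocks, 556 of 1013 exon bases, lie before the coding part, the farthest 69791 bases from it. Its level was 4.05, 3.54 and 4.38 CPM in the 22 °C libraries and 7.60, 6.46 and 6.80 CPM in the 10 °C libraries. The lowest cold library was still above the highest control. It rose 1.73-fold (log2 0.79, 95% interval 0.48 to 1.11, adjusted p = 0.204 by edgeR's quasi-likelihood test) and ranked at 8 among all genes by p. These levels rest on 56 to 116 counts per library. Exons of Ctcf on the opposite strand and of Gm5914 on the same strand each cover 114 of the exon bases of Agrp. Reads from there cannot be told apart, in the case of Ctcf because strand is not stated to have been used in counting.

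Npy, made by the same arcuate neurons and by others, lies at chr6:49822710-49829507 on the plus strand. Libraries at 22 °C held 19.8, 17.3 and 17.4 CPM and those at 10 °C 25.3, 26.6 and 28.6 CPM. No library overlapped with the other group. The fold was 1.48, under the limit of 1.5, with a log2 difference of 0.57 (95% interval 0.38 to 0.76, adjusted p = 0.0832 by edgeR's quasi-likelihood test), and it ranked at 4 by p. Without the first 10 °C library the log2 difference was 0.61 and without the first 22 °C library 0.63, both past the limit.

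Avp, the antidiuretic hormone, lies at chr2:130580620-130582554 on the minus strand. It stood at 167.3, 142.9 and 146.6 CPM at 22 °C and at 324.9, 183.8 and 217.3 CPM at 10 °C. The groups did not overlap, but 1 cold library, the first, was far above the other two. Avp rose 1.59-fold (log2 0.67, 95% interval 0.34 to 1.002, adjusted p = 0.431 by edgeR's quasi-likelihood test). Without that library the log2 difference was 0.40, with an adjusted p = 0.539 by the same test and below the limit of 1.5-fold, so the call rests on it.

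Oxt, which acts in lactation, birth and social behaviour, is the neighbour of Avp at chr2:130576173-130577054 on the opposite strand, 3565 bases away. Its libraries held 138.3, 118.1 and 146.7 CPM at 22 °C and 116.6, 131.4 and 128.1 CPM at 10 °C and overlapped. The log2 difference was -0.10 (95% interval -0.27 to 0.07, adjusted p = 0.885), an interval that leaves out a 1.5-fold difference in either direction.

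The 250 bases before the start of Npy, Avp and Oxt are shown because the libraries of Npy and Avp were apart and higher at 10 °C and Oxt is the neighbour of Avp. Hcrt and Pmch, which were apart but lower, have windows too that are not shown. They were taken from the RefSeq promoters (GRCm38.p6), which matched 8 of the 10 genes, all but Agrp and Crh. Capitals mark 3 motifs looked for on both strands: ATAAA, letters of the TATA box, held by 37.3% of the 32851 windows of this length, TGACG, the core of a cAMP response element, held by 17.8%, and CACGTG, an E-box, held by 6.02%. The Npy window is chr6:49822460-49822709 on the plus strand, that of Avp chr2:130582589-130582838 on the minus strand and that of Oxt chr2:130575919-130576168 on the plus strand.
Npy: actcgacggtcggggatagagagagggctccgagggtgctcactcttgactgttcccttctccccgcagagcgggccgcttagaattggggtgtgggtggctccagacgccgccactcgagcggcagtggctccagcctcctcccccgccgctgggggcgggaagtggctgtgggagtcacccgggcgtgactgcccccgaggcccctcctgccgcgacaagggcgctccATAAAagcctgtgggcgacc
Avp: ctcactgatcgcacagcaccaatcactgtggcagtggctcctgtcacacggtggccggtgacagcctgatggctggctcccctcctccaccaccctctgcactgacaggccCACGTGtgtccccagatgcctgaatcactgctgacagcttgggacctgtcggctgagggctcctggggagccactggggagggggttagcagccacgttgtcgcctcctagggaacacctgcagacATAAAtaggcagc
Oxt: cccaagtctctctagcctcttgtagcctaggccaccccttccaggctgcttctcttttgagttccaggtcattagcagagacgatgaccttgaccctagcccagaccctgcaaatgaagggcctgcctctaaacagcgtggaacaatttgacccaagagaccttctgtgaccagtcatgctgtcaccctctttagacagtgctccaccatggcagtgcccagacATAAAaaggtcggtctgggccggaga
Each of the 3 windows held ATAAA, with its first base at position -20 for Npy, -13 for Avp and -26 for Oxt from the start, that of Avp also held CACGTG at -139, and none held TGACG. No motif overlapped another.

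Hcrt and Pmch had lower values in every cold library, by less than 1.5-fold. Hcrt (chr11:100761069-100762931, minus strand), whose peptides keep animals awake and raise thermogenesis, had 174.4, 167.0 and 177.5 CPM at 22 °C and 108.5, 155.5 and 155.5 CPM at 10 °C. The first cold library, the one highest in Avp, was the lowest in Hcrt. The log2 difference was -0.31 (95% interval -0.54 to -0.07, adjusted p = 0.759 by edgeR's quasi-likelihood test) and -0.15 without that library. Pmch (chr10:88091072-88092375, plus strand), whose peptide promotes feeding and sleep, had 122.3, 140.8 and 126.3 CPM at 22 °C and 116.4, 115.7 and 120.7 CPM at 10 °C. Its log2 difference was -0.14 (95% interval -0.27 to -0.01, adjusted p = 0.782 by the same test). Exons of Parpbp on the other strand cover 435 of the 749 exon bases of Pmch, and reads from there cannot be told apart if strand was not used in counting. Neither gene reached the fold of a call.

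**Figure D2:**
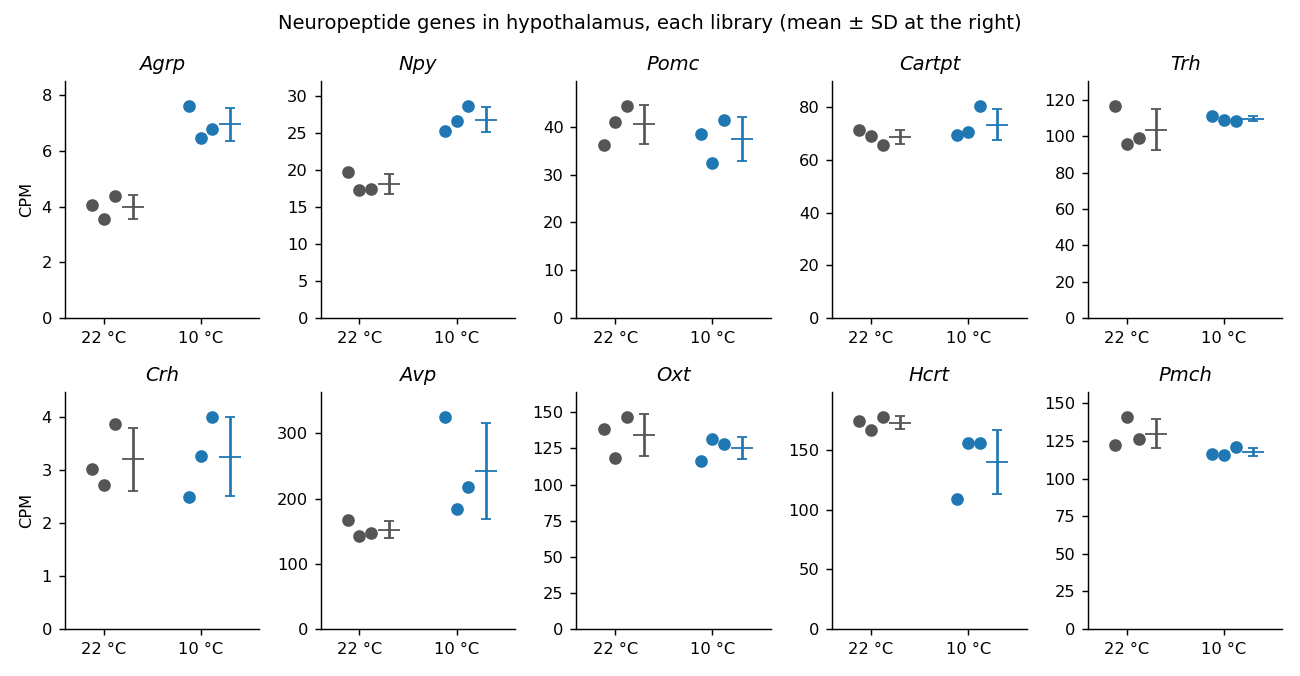
CPM of each neuropeptide gene in the 3 hypothalamus libraries at 22 °C (grey) and the 3 at 10 °C (blue), with the mean ± SD at the right of each group and every axis from 0. The groups are apart for Agrp, Npy and Avp, which were higher at 10 °C, and for Hcrt and Pmch, which were lower, and overlap for the other 5.

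The precursor genes of the melanocortin side gave no call. Pomc (chr12:3954951-3960642, plus strand), the source of alpha-melanocyte stimulating hormone, had 36.2, 41.0 and 44.2 CPM at 22 °C and 38.5, 32.5 and 41.4 CPM at 10 °C, and the log2 difference was -0.12 (95% interval -0.32 to 0.09, adjusted p = 0.887). Cartpt (chr13:99898489-99901091, minus strand), whose peptide reduces feeding, had 71.2, 68.9 and 65.7 CPM at 22 °C and 69.3, 70.5 and 80.2 CPM at 10 °C. Its log2 difference was 0.10 (95% interval -0.05 to 0.24, adjusted p = 0.869). The groups overlapped for both genes, and both intervals leave out a 1.5-fold difference.

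The releasing hormone genes gave no call either. Trh (chr6:92242061-92244650, minus strand), which starts the thyroid axis, had 116.3, 95.5 and 98.8 CPM at 22 °C and 111.2, 109.0 and 108.5 CPM at 10 °C, a log2 difference of 0.09 (95% interval -0.06 to 0.23, adjusted p = 0.887). Crh (chr3:19693401-19695396, minus strand), which starts the adrenal axis, had 3.01, 2.72 and 3.87 CPM at 22 °C and 2.49, 3.26 and 3.99 CPM at 10 °C. With 38 to 82 counts per library its log2 difference of 0.01 had a wide interval, from -0.47 to 0.48 (adjusted p = 0.998). For both genes a 1.5-fold difference lies outside the interval, though less far outside for Crh, and the groups overlapped.

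Marker genes of other cells moved between the same libraries. All 5 oligodendrocyte markers had lower values at 10 °C with p of at most 0.05, led by Mbp (log2 -0.25) and Cnp (log2 -0.17), and their summed level was 3819 to 3838 CPM at 10 °C and 4309 to 4647 CPM at 22 °C. All 5 red blood cell markers had higher values with p of at most 0.05, Hbb-bt (log2 0.63) past the fold limit and Hba-a1 (log2 0.53) below it, summing to 200.4 to 209.3 CPM at 10 °C and 114.9 to 184.6 CPM at 22 °C. The 5 hypothalamus markers summed to 86.3 to 90.6 CPM at 10 °C and 78.5 to 81.6 CPM at 22 °C, with Sim1 (log2 0.23, adjusted p = 0.751) and Nr5a1 (log2 0.28, adjusted p = 0.801) below the fold limit. Ependymal and tanycyte markers summed to 86.4 to 92.3 CPM and 76.8 to 88.1 CPM, with Rax (log2 0.69) called and Col23a1 (log2 0.25) not. The 10 pituitary markers summed to 7.67 to 18.6 CPM at 10 °C and 8.37 to 25.1 CPM at 22 °C, Pou1f1 was at 0 in 1 library of each group, and Gh (log2 -1.29, adjusted p = 0.838) and Pax7 (log2 -0.60, adjusted p = 0.843) had the lowest p. The part of these shifts in the neuropeptide values was not tested.

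Further markers gave the following values. Of the cortex and hippocampus markers, Slc17a7 was called higher (log2 1.38) with 2.31 ± 0.943 CPM at 22 °C and 6.22 ± 6.55 CPM at 10 °C (SD, n = 3), and Tbr1 had a log2 difference of -0.33 (adjusted p = 0.922). Of the microglia markers, Csf1r (log2 -0.12) and Cx3cr1 (log2 -0.13) passed with p alone, and of the neuron markers so did Syt1 (log2 -0.10), with Stmn2 at -0.14 (adjusted p = 0.801). No marker of thalamus (Prkcd log2 -0.30, Lef1 0.08), striatum (Rgs9 0.13, Drd2 -0.15), choroid plexus (Folr1 0.48, Kl 0.16), astrocytes (Aqp4 -0.08, Aldh1l1 0.05), blood vessel (Cldn5 0.15, Pecam1 0.11), spinal cord (Chat -0.48) or dorsal root ganglion (Prph 0.10, Calca -0.12) had p of at most 0.05. The 5 liver genes summed to 2.55 to 34.55 CPM at 22 °C and 7.465 to 215.4 CPM at 10 °C, highest in the third cold library. The sums of microglia (145.9 to 151.4 CPM at 10 °C, 155.9 to 160.5 CPM at 22 °C) and blood vessel markers (163.6 to 166.1 and 157.2 to 157.6 CPM) did not overlap, while those of the other lists of this paragraph did.

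Genes that work with these peptides were read from 7 lists in the hypothalamus. Of 14 receptor and binding protein genes tested, 0 were called, and the list's median log2 difference was 0.04 against 0.00 over all genes. By edgeR's quasi-likelihood test 2 of them passed with p alone: Crhbp, which binds and holds back CRH, had 10.4 ± 0.0918 CPM at 22 °C and 13.3 ± 1.78 CPM at 10 °C (log2 0.35, adjusted p = 0.751), and Mchr1, the receptor for the Pmch peptide, a log2 difference of 0.21 (adjusted p = 0.801). Of 14 genes of peptide processing and dense core vesicles none was called, with a median of -0.03. Scg3 (log2 -0.12, adjusted p = 0.759) and Scg2 (log2 -0.11, adjusted p = 0.801), both granins that help to fill secretory granules, had the lowest p.

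Of 17 other hypothalamic neuropeptide genes tested, 1 was called, and the median was -0.08. Npvf, the precursor of RFamide peptides that restrain the gonadal axis, fell by 1.17 on the log2 scale, from 7.21 ± 0.884 to 3.22 ± 0.835 CPM (SD, n = 3, adjusted p = 0.0832 by edgeR's quasi-likelihood test). Its libraries did not overlap between temperatures. With p alone 2 more genes passed, 1 in each direction. Sst, which inhibits growth hormone release, had 72.1 ± 5.11 CPM at 22 °C and 60.9 ± 5.34 CPM at 10 °C (log2 -0.24, adjusted p = 0.751). Qrfp, the precursor of another RFamide peptide, which was added after its values were seen, had 2.96 ± 0.441 CPM at 22 °C and 4.10 ± 0.104 CPM at 10 °C (log2 0.48, adjusted p = 0.759), and its libraries did not overlap either. Of 19 hypothalamic transcription factor genes 1 was called, Rax, which marks tanycytes and is also counted among the markers above, at 1.67 ± 0.604 CPM at 22 °C and 2.74 ± 0.980 CPM at 10 °C (SD, n = 3, adjusted p = 0.801), and the median was 0.02.

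None of the 6 hormone and nutrient signal receptor genes (median 0.08), the 8 thyroid hormone handling genes (median 0.06) and the 7 glucocorticoid feedback genes (median -0.06) was called. Socs3, an inhibitor of leptin receptor signals, had a log2 difference of 0.30 (adjusted p = 0.818) and Lepr, the leptin receptor, one of 0.21 (adjusted p = 0.883). Dio2, which turns thyroxine into its active form, had 14.4 ± 0.901 CPM at 22 °C and 16.7 ± 1.46 CPM at 10 °C (log2 0.22, adjusted p = 0.799), and Klf9, a thyroid hormone target, a log2 difference of -0.10 (adjusted p = 0.801). Fkbp5 (log2 -0.18, adjusted p = 0.801) and Tsc22d3 (log2 -0.14, adjusted p = 0.801), both induced by glucocorticoids, had values slightly lower in the cold.

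Pairs of peptides with shared neurons or nuclei were compared over the 6 hypothalamus libraries on log2 CPM. Both genes of 2 pairs, Agrp with Npy and Hcrt with Pmch, were apart between the temperatures, so no value over all 6 libraries is given for them. Over all 6 libraries Avp and Oxt had Pearson r = -0.523 (exact permutation p = 0.286) and Spearman rho = -0.429 (exact permutation p = 0.419), and r = 0.187 without the 2 libraries farthest in Avp. Pomc and Cartpt (r = -0.0609, rho = -0.371) and Trh and Crh (r = -0.0626, rho = -0.257) had exact permutation p of 0.904 and 0.908 for r, 0.497 and 0.658 for rho, and r = 0.457 and -0.360 without the 2 farthest libraries. Adjusted over all 5 pairs, the p of these 3 pairs was at least 0.477 for r and 0.622 for rho.

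Within a temperature the pairs were compared on the deviations from the temperature means, with an exact permutation test over the 36 arrangements that keep each library in its temperature (smallest p 0.0278). Agrp and Npy had r = -0.109 (exact permutation p = 0.917), made of 0.211 in the 3 libraries at 22 °C and -0.613 in the 3 at 10 °C. Hcrt and Pmch had r = 0.0567 (exact permutation p = 0.833), made of -0.845 and 0.558. For Avp and Oxt r was -0.382, for Pomc and Cartpt 0.183 and for Trh and Crh -0.0847, with exact permutation p of 0.417, 0.833 and 0.861. The adjusted p over the 5 pairs was 0.917 for each.

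The genes most like each peptide gene over these 6 libraries, among 14526 genes, reached r of 0.976 to 0.996, which so few libraries give easily. Temperature was not removed. For Agrp, Npy, Avp, Hcrt and Pmch, whose groups were apart, the ranking therefore favours genes that differ between the temperatures. For Npy they were Mst1, Zfp954 and Nfil3, for Agrp Dcp2, Hipk4 and Rbm41, and for Avp Onecut1, Ube2e3 and Zfp52. Of these, Mst1 (log2 0.76) and Onecut1 (log2 0.63) were called higher at 10 °C, which this ranking makes likely and which is no separate result. For the others they were Tmprss6, Fosb and Aco1 (Pomc), Glrx, Farsb and Rasgrp3 (Cartpt), Klhl34, Galnt16 and Dynll1 (Trh), Ppp5c, Keap1 and Lsm11 (Crh), Nacad, Ap1b1 and Elfn2 (Oxt), Klhdc9, Adrm1 and Cdh20 (Hcrt), and Golga1, Spata7 and Fam129a (Pmch), none of them called.

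In brain, cold was compared next, with 3 libraries at 10 °C and 2 at 22 °C. Avp, Oxt, Hcrt and Pmch were called higher at 10 °C and Pomc lower, while Trh, Npy, Crh and Cartpt were not called. Of the 9 neuropeptide genes tested 5 were called, 4 higher and 1 lower, against 0.801% of 13976 genes (0.515% higher, 0.286% lower). By edgeR's quasi-likelihood test none of the 9 had an adjusted p under 0.05 (0.122% of all genes) and 6 had p of at most 0.05 (8.85%), whereas DESeq2 gave 2 with p of at most 0.05 (Pomc and Avp) and 0 adjusted, and the exact test 2 adjusted. The groups did not overlap for Trh, Avp and Pmch (higher at 10 °C) and Agrp (lower), as for 25.8% of all genes (9.12% higher, 16.6% lower). Levels were low, from 0.941 to 7.85 CPM for the 4 genes called higher. Oligodendrocyte markers summed to 5228 to 5412 CPM in the cold libraries and to 6211 and 6905 CPM at 22 °C, and red blood cell markers to 258.5 to 355.8 CPM and to 246 and 205.9 CPM. Sums that did not overlap were also those of astrocyte markers (1450 to 1563 CPM in the cold, 1679 and 1700 at 22 °C), of ependymal and tanycyte markers (33.16 to 36.94 and 37.18 to 38.37 CPM) and of the liver genes (6.17 to 15.3 and 3.21 to 5.07 CPM). The part of these shifts in the neuropeptide values was not tested.

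Avp had 2.21 and 3.14 CPM at 22 °C and 7.85, 4.45 and 4.82 CPM at 10 °C, and rose 2.15-fold (log2 1.11, SE 0.245, adjusted p = 0.102 by edgeR's quasi-likelihood test). Without the first cold library, the highest, the log2 difference was 0.80 and still called. Hcrt had 1.57 and 0.941 CPM at 22 °C and 4.63, 1.13 and 3.23 CPM at 10 °C. Its groups overlapped. The log2 difference of Hcrt was 1.34 (SE 0.425, adjusted p = 0.352 by the same test), and without 22 °C replicate 3 it was 0.97 and no longer called, while without the first cold library it was 0.84.

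Pmch had 1.07 and 1.52 CPM at 22 °C and 2.31, 2.15 and 1.94 CPM at 10 °C, with a log2 difference of 0.72 (SE 0.266, adjusted p = 0.441 by edgeR's quasi-likelihood test) that fell to 0.53 and lost its call without 22 °C replicate 1. Oxt had 2.14 and 2.77 CPM at 22 °C and 6.53, 1.89 and 4.06 CPM at 10 °C, and its groups overlapped. Its log2 difference of 0.78 (SE 0.343, adjusted p = 0.529 by the same test) dropped to 0.27 without the first cold library, and leaving out cold library 3 (0.80), 22 °C replicate 1 (0.63) or 22 °C replicate 3 (1.001) ended the call too. That first cold library had the most Avp, Oxt, Hcrt and Pmch of the brain libraries. Its 5 hypothalamus markers summed to 2.18 CPM, against 2.149 and 1.881 CPM in the other cold libraries and 1.496 and 2.196 CPM at 22 °C, and their part in these values was not tested.

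Pomc in brain had 1.35 and 13.9 CPM at 22 °C and 1.18, 1.59 and 1.59 CPM at 10 °C. A single 22 °C library, replicate 3, lay far above the other four. The log2 difference was -2.46 (SE 0.496, adjusted p = 0.0584 by edgeR's quasi-likelihood test), and without that library it was 0.11 (adjusted p = 0.999). The same library had the most Gh, the growth hormone gene, at 16.8 CPM, where the other 4 had 0 to 3.99 CPM, and the most Prl, the prolactin gene, at 3.24 CPM against 0 to 0.767 CPM. Its 10 pituitary markers summed to 24.4 CPM with none at 0, against 2.72 to 7.27 CPM in the others, in which Cga, Fshb, Pou1f1, Pitx1 and Tbx19 were at 0 in 22 °C replicate 1 and Prl and Gh in the first cold library. The part of pituitary RNA in the Pomc value was not tested.

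**Figure D3:**
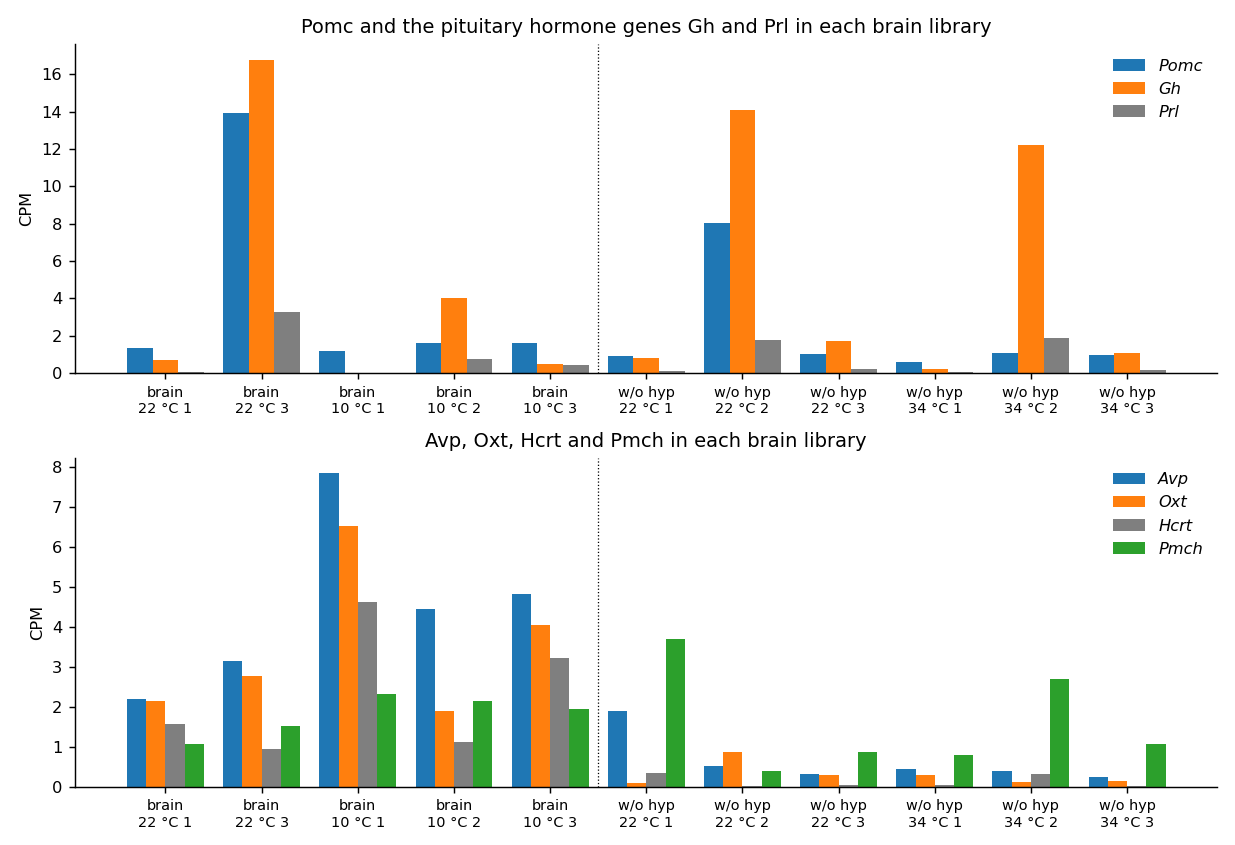
CPM of Pomc with the pituitary genes Gh and Prl (upper panel) and of Avp, Oxt, Hcrt and Pmch (lower panel) in each library of brain (left of the dotted line; 22 °C replicate 2 is not drawn) and of brain without hypothalamus (w/o hyp, right). Pomc stands at 13.9 in brain at 22 °C replicate 3 and at 8.04 in brain without hypothalamus at 22 °C library 2, both rich in Gh, and near 1 elsewhere, also in the Gh-rich 34 °C library 2.

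The 4 other genes tested in brain were not called. Trh had 11.7 and 9.93 CPM at 22 °C and 12.1, 12.3 and 14.8 CPM at 10 °C (log2 0.30, SE 0.134, adjusted p = 0.533 by edgeR's quasi-likelihood test), with every cold library above those at 22 °C and p of at most 0.05 but a fold under the limit. Npy had 53.0 and 55.7 CPM at 22 °C and 49.2, 60.2 and 48.0 CPM at 10 °C (log2 -0.03, SE 0.0928). Cartpt had 17.9 and 16.4 CPM against 17.5, 17.8 and 14.6 CPM (log2 -0.01, SE 0.112), and Crh 6.48 and 6.95 CPM against 5.22, 6.86 and 6.53 CPM (log2 -0.10, SE 0.159). The groups of these last 3 genes overlapped. Agrp, with 4 to 10 counts a library, was under the limit of an average log2 CPM above 0 and was not tested within brain, where its cold libraries lay below those at 22 °C.

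Whether the difference between 10 °C and 22 °C was itself unlike in hypothalamus and brain was tested with an interaction term over both tissues. The fit took libraries of the 2 tissues as independent, and it was not known whether they came from the same mice. In this test 1.15% of 14421 genes were called (0.527% higher, 0.624% lower in the hypothalamus), 0.00693% had an adjusted p under 0.05 and 4.73% had p of at most 0.05. Of the 10 neuropeptide genes 5 were called (2 higher, 3 lower) and 6 had p of at most 0.05, none with an adjusted p under 0.05 by edgeR's quasi-likelihood test or DESeq2, which gave 5 genes with p of at most 0.05. The 10 °C change was larger in the hypothalamus for Agrp, by 1.51 on the log2 scale (SE 0.422, adjusted p = 0.849 by edgeR's quasi-likelihood test), which was called. It was also larger for Npy, by 0.58 (SE 0.129, adjusted p = 0.540 by the same test), just under the fold limit and not called. With 1 library left out the Npy value ran from 0.53 to 0.68, on both sides of that limit. Agrp had 0.235 to 0.712 CPM in brain, under the expression limit there, and entered this fit through the hypothalamus libraries. The change was smaller in the hypothalamus for Hcrt (-1.67, SE 0.528), Oxt (-0.90, SE 0.393) and Pmch (-0.87, SE 0.225). For Pomc, the other gene called higher, the difference of 2.36 (SE 0.606) became -0.23 without 22 °C brain replicate 3. The call of Oxt was lost without any 1 of 6 libraries (-0.36 without the first cold brain library) and that of Hcrt without 22 °C brain replicate 3 (-1.30). For Avp the difference was -0.45 (SE 0.427, adjusted p = 0.962), or -0.70 and called without the first cold hypothalamus library, and Trh (-0.23), Crh (0.08) and Cartpt (0.09) were not called.

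**Figure D4:**
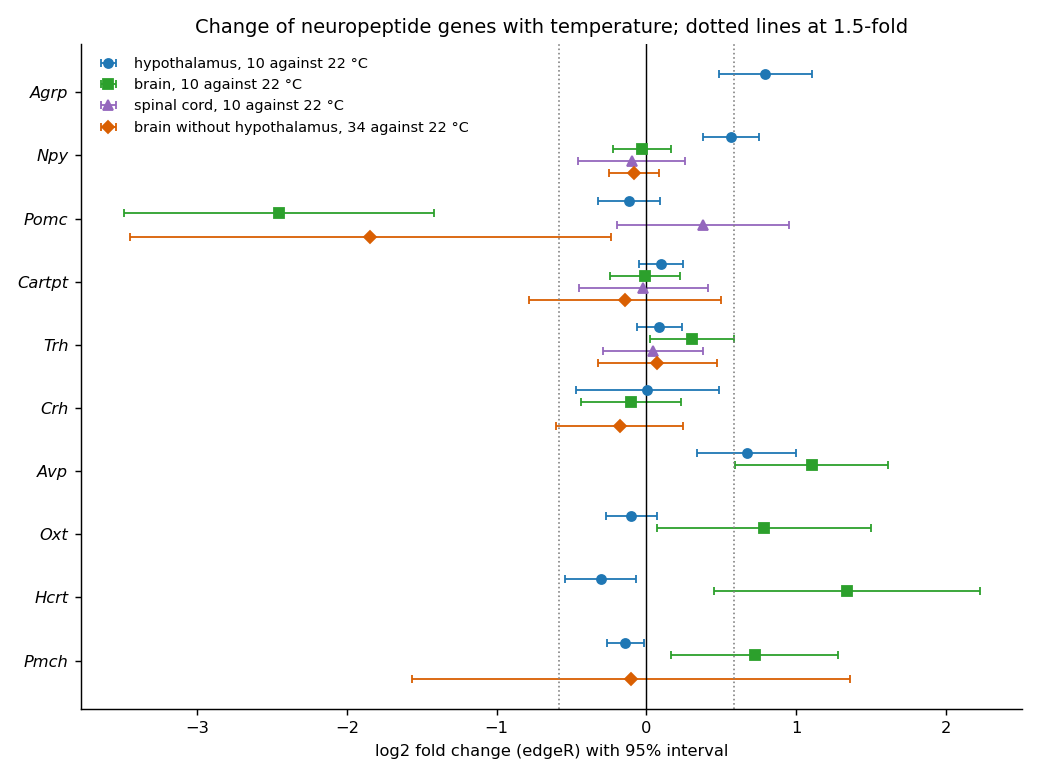
Log2 fold change of each neuropeptide gene with its 95% interval (edgeR) for hypothalamus, brain and spinal cord at 10 °C and for brain without hypothalamus at 34 °C, each against 22 °C; dotted lines mark 1.5-fold and genes with no symbol were not tested. In the hypothalamus the intervals of Agrp, Npy and Avp lie to the right of 0 and those of Hcrt and Pmch to the left. In brain at 10 °C those of Avp, Oxt, Hcrt, Pmch and Trh lie to the right, and the long Pomc intervals of both brain series lie to the left.

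In spinal cord, 4 of the 10 genes reached the expression limit: Cartpt, Npy, Trh and Pomc. None was called, where 0.271% of 14382 genes were, and none had p of at most 0.05 (5.79% of all genes) by edgeR's quasi-likelihood test, DESeq2 or the exact test. Cartpt had 16.4 ± 2.46 CPM at 22 °C and 16.1 ± 5.64 CPM at 10 °C (SD, n = 5), with a log2 difference of -0.02 (95% interval -0.45 to 0.41). Npy had 13.2 ± 2.17 and 12.3 ± 3.18 CPM, and a log2 difference of -0.10 (95% interval -0.46 to 0.26). For Trh the levels were 4.33 ± 0.776 and 4.43 ± 0.799 CPM (log2 0.04, 95% interval -0.29 to 0.38), and for Pomc 0.971 ± 0.204 and 1.26 ± 0.516 CPM (log2 0.38, 95% interval -0.19 to 0.95). The Cartpt, Npy and Trh intervals leave out a 1.5-fold difference, that of Pomc does not.

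The libraries of the 2 temperatures overlapped for all 4 genes. Cartpt ran from 13.7 to 20.4 CPM (median 16.1) at 22 °C and from 11.7 to 25.7 CPM (median 14.4) at 10 °C, where 1 cold library, the fourth, was highest in both Cartpt and Pomc. Per kilobase the order at 22 °C was Npy at 23.4 ± 3.83, Cartpt at 12.9 ± 1.92, Trh at 3.13 ± 0.561 and Pomc at 0.737 ± 0.154. On that measure Npy, which was below Cartpt and Trh in the hypothalamus, was above both in the cord. In CPM, without exon length, Npy (13.2) was below Cartpt (16.4) in the cord at 22 °C, with overlapping libraries. The step between Npy and Cartpt thus rests on the exon lengths used. Without the fourth cold library the log2 difference of Pomc was 0.11 and that of Cartpt -0.255, neither called.

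The fourth cold library also stood apart in its markers, with a neuron sum of 2926 CPM and an oligodendrocyte sum of 21800 CPM, where the other cold libraries had 3583 to 3952 and 27540 to 28340 CPM. Between the temperatures the thalamus markers did not overlap (80.4 to 108.1 CPM at 10 °C, 109.4 to 121.2 CPM at 22 °C). The sums of red blood cell markers (131.1 to 333 CPM at 10 °C, 84.05 to 161.2 CPM at 22 °C) and of oligodendrocyte markers (21800 to 28340 and 27970 to 33910 CPM) overlapped in part, and so did those of the cord (186.4 to 210.2 and 183.1 to 199.1 CPM), of dorsal root ganglion (81.1 to 141.3 and 76.05 to 126.8 CPM) and of the 10 other marker lists. The 5 liver genes summed to 404.8 CPM in the first 22 °C library and 116.6 CPM in the third cold library, and to 0.0748 to 0.571 CPM in the other 8. Without those 2 libraries the log2 differences were 0.0059 for Cartpt, 0.0426 for Npy, 0.19 for Trh and 0.34 for Pomc, none called. The part of these markers in the neuropeptide values was not tested.

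The other 6 genes were under the expression limit in spinal cord. Crh lay just under it, at 0.787 ± 0.197 CPM at 22 °C and 1.01 ± 0.460 CPM at 10 °C (SD, n = 5), with 11 to 37 counts in each library, 107 in all at 22 °C and 127 at 10 °C (log2 difference 0.26, exact permutation p = 0.516). Its lowest and highest libraries were both cold, the third at 0.397 CPM and the fourth at 1.69 CPM. Without the third cold library Crh was over the limit, with a log2 difference of 0.56 (adjusted p = 0.696 by edgeR's quasi-likelihood test) that was not called, and without both libraries with liver genes it was 0.62 (adjusted p = 0.838 by the same test) and called. The remaining 5 genes had few counts. Agrp had 10 and 12 counts, Pmch 16 and 12, Hcrt 9 and 6, Oxt 4 and 5 and Avp 2 and 5. In exact two-sided permutation tests of mean log2 CPM, with 0.00794 as the smallest p possible, these 5 gave exact p of 0.349 to 1, and the adjusted p over the 6 genes was 1. A library with 0 counts allows a level of up to 0.103 to 0.137 CPM, the worth of 3 counts at this depth. A 0 in a single library therefore does not show that a gene was absent.

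Warmth was studied in brain without hypothalamus, where 6 of the 10 genes were tested and 1 was called, as lower, against 0.193% of 13978 genes (0.15% lower). That gene was Pomc, at 0.891, 8.04 and 1.03 CPM at 22 °C and 0.605, 1.09 and 0.989 CPM at 34 °C (log2 -1.84, SE 0.730, adjusted p = 0.9997 by edgeR's quasi-likelihood test). The second 22 °C library alone carried the difference, and without it Pomc was under the expression limit and not tested. Leaving out 34 °C library 1 (-1.64) or 3 (-1.91) ended the call as well. The second 22 °C library had 14.1 CPM of Gh and 1.76 of Prl, while the second 34 °C library had 12.2 and 1.90 CPM with Pomc near 1. The 10 pituitary markers summed to 17.3 and 15.97 CPM in these 2 libraries and to 1.23 to 3.70 CPM in the other 4, and their part in the Pomc value was not tested. Sums of thalamus markers (110.3 to 134.1 CPM at 34 °C, 139.6 to 174.5 CPM at 22 °C) and of oligodendrocyte markers (5434 to 5549 and 5615 to 6027 CPM) did not overlap. Those of all other marker lists did. The part of these shifts in the neuropeptide values was not tested.

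Npy had 51.8, 50.7 and 48.0 CPM at 22 °C and 43.5, 45.2 and 52.4 CPM at 34 °C (log2 -0.08, 95% interval -0.25 to 0.08), so a 1.5-fold difference lay outside its interval. Trh had 11.0, 7.86 and 7.06 CPM against 10.7, 7.27 and 9.19 CPM (log2 0.07, SE 0.180), Crh 2.53, 3.76 and 3.42 CPM against 2.88, 2.58 and 3.03 CPM (log2 -0.18, SE 0.192), and Cartpt 6.04, 4.96 and 9.60 CPM against 4.36, 5.03 and 9.25 CPM (log2 -0.14, SE 0.290). All these groups overlapped. Pmch had 3.69, 0.388 and 0.862 CPM at 22 °C and 0.807, 2.69 and 1.07 CPM at 34 °C (log2 -0.10, SE 0.663). One library of each group was high in Pmch, and the same 2 were high in Hcrt, at 0.334 and 0.308 CPM against 0.0190 to 0.0403 CPM in the other 4. Without the first 22 °C library the log2 difference of Pmch was 1.285 and past both limits of a call.

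The lateral and neurosecretory peptides were scarce in brain without hypothalamus. Avp ran from 0.247 to 1.89 CPM over its 6 libraries, Oxt from 0.0954 to 0.878 CPM, Hcrt from 0.0190 to 0.334 CPM and Agrp from 0 to 0.114 CPM, and all 4 were under the expression limit. With every gene of at least 1 count fitted, Avp had a log2 difference of -1.30 (adjusted p = 0.999 by edgeR's quasi-likelihood test) and was called. In the brain libraries of the 10 °C experiment the same genes had 2.21 to 7.85, 1.89 to 6.53, 0.941 to 4.63 and 0.235 to 0.712 CPM. The 2 series used different kits, instruments and mice and were counted separately, so these levels are set side by side without a test.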

How the data were processed

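Gene counts from bulk RNA sequencing were used as deposited. Per the labels and the study's methods, the authors aligned reads with STAR to mm10 and counted them per gene with HTSeq; the methods and the processing notes give different versions, and neither step was repeated. Hypothalamus and brain of the 10 °C experiment were prepared with another kit and sequenced on another instrument than spinal cord and the 34 °C experiment. The 10 genes and all gene lists were chosen with earlier results of these data known. Named genes are the 10 members, every list or marker gene called in hypothalamus (or the 2 lowest in p) and, for each member, the 3 genes most like it by Pearson r.

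The libraries of a comparison were fitted alone, or together for hypothalamus against brain, with edgeR 4.0.16 in R 4.3.3: TMM scaling, genes with average log2 CPM above 0, and the two-sided quasi-likelihood test. Fits over both tissues held no term for mice that may have given both. Calls needed p of at most 0.05 and a fold above 1.5, the limits of the study, and adjusted p is Benjamini-Hochberg over all genes tested. CPM values are shares of the library total without TMM. Exon lengths and positions are from GENCODE (GRCm38, the assembly of mm10). Alternatives were DESeq2 1.42.0, edgeR's exact test, other scalings and filters, the replicate number as a block, all brain libraries and each library left out. The pipeline was tested on simulated data for hypothalamus, where it called 97% of 1.75-fold changes and 100% of 2-fold changes among 14348 genes. The simulation gave every gene the same dispersion, held no outlying library and left the lowest genes unchanged. These shares therefore do not give the power of the real comparison. Bone marrow was not used. Nothing says that reads were deduplicated by molecule, and floors on counts hold counting error alone. The p-values measure the spread between libraries, each a pool of 2 mice or, in spinal cord, from 1 mouse. Spinal cord columns were matched to their group but not to single labels.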

Additional observations from a re-analysis of the deposited data

Results flagged for a closer look

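For 6 of the 10 genes the interaction p of hypothalamus and brain was at most 0.05 in edgeR's quasi-likelihood test, against 4.73% of all genes. None of the 6 had an adjusted p under 0.05. The hypothalamic change minus the brain change on the log2 scale was 1.51 for Agrp, 0.58 for Npy, 2.36 for Pomc, -0.90 for Oxt, -1.67 for Hcrt and -0.87 for Pmch. The value for Agrp sets the hypothalamus against a brain level of 4 to 10 counts a library, and that for Pomc became -0.23 without 22 °C brain replicate 3. Without the first cold brain library the value for Oxt was -0.36, below the fold limit, and that for Hcrt -1.15. The call of Oxt was also lost without some other single libraries.

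Outside the neural tissues, 3 groups had a median of at least 1 CPM and over 3 counts in every library. Agrp had a median of 1.19 CPM in spleen at 10 °C and of 1.03 CPM at 22 °C, with 11 to 21 counts a library, above its 0.235 to 0.712 CPM in brain. The annotation of Agrp includes upstream exons far from the peptide's coding part, and which exons were read is not shown by gene counts. Npy had a median of 5.13 CPM in perigonadal fat at 22 °C, with 3.05 to 18.01 CPM, and at 10 °C it ran from 0 to 62.0 CPM over 3 libraries, so that the libraries of 1 group differed more than the groups. A single quadriceps library at 10 °C had 351 Npy counts, where the other 2 had 0 and 1. In the 10 spinal cord combinations of a group and a neuropeptide gene that were checked, no library was far from the other 4 in that gene by Dixon's test.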

How the results depend on the processing

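With an adjusted p under 0.05 in place of the unadjusted p, calls numbered 0 in hypothalamus, 12 in brain, 1 in spinal cord and 0 in brain without hypothalamus, and 0 of the neuropeptide genes in each. Without the expression limit (every gene with at least 1 count) 257, 224, 229 and 196 genes were called, and 313 for the difference between tissues, with 2 neuropeptide genes in brain without hypothalamus. DESeq2 called 37 genes in hypothalamus, 54 in brain and 90 for the difference, and 2 neuropeptide genes in brain and 0 in brain without hypothalamus. With all 3 brain libraries at 22 °C, 393 genes were called in brain and 507 for the difference, with 2 and 3 neuropeptide genes, and the signs turned for Cartpt (0.23), Crh (0.17) and Npy (0.20) in brain and for Cartpt (-0.14) and Crh (-0.15) in the difference. A prior count of 0.5 turned the spinal cord values of Agrp (-0.0543) and Hcrt (0.25). The cause of these shifts was not tested.

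When each library was dropped in turn, there were 70 to 183 called genes in hypothalamus (highest without 22 °C library 2), 117 to 185 in brain (without 22 °C replicate 1), 29 to 114 in spinal cord (without 22 °C library 2), 34 to 65 in brain without hypothalamus (without 22 °C library 3) and 146 to 264 for the difference (without 22 °C hypothalamus library 2). Neuropeptide genes called ran from 2 to 5 in brain, 0 to 2 in brain without hypothalamus and 2 to 6 for the difference. Log2 values that crossed 0 were those of Crh in hypothalamus (-0.17 to 0.18), of Pomc (-3.24 to 0.11), Cartpt (-0.0774 to 0.0629), Crh (-0.17 to 0.0223) and Npy (-0.12 to 0.0244) in brain, of Cartpt (-0.255 to 0.0807) and Trh (-0.0501 to 0.12) in spinal cord, of Cartpt (-0.53 to 0.19), Pmch (-0.82 to 1.285) and Trh (-0.0652 to 0.29) in brain without hypothalamus, and of Pomc (-0.23 to 3.12) and Crh (-0.0711 to 0.28) in the difference. A brain group left with 1 library was assumed to vary like the others. All 10 calls of hypothalamus against brain were kept under every alternative run.

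Hypothalamus libraries of the 2 temperatures were matched by replicate number alone. Correlations were -0.0919, 0.131 and 0.288 for the same number and ran from -0.247 to 0.161 for different numbers. These values cannot decide whether libraries were paired. With the replicate number as a block, 106 genes were called in hypothalamus and 122 in brain, with 2 and 5 neuropeptide genes. Added after the data were seen, the column number was used as a block in spinal cord (numbers 1 to 4, correlations of -0.255, 0.184, -0.278 and 0.134) and in brain without hypothalamus (-0.0449, 0.237 and 0.248). It gave 52 and 36 called genes with 0 and 1 neuropeptide genes, and a Pmch value of 0.145 in brain without hypothalamus. The same 8 spinal cord libraries without the block gave 53 genes and 1 neuropeptide gene (Pomc, 0.63), with Cartpt at 0.0645. Without both spinal cord libraries with liver genes, also added afterwards, 77 genes were called, with 1 neuropeptide gene (Crh, 0.62), and Cartpt (0.0059) and Npy (0.0426) turned in sign.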
